A study of Mus musculus with 6 samples.

Results

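Of 49217 windows of 50 kb on mouse chromosomes 1 to 19, 473 held at least 1 peak summit in each of 3 anti-Flag chromatin immunoprecipitation lists. These are called shared bins here. Chromosomes were cut into 50 kb bins from position 0, each peak was placed by its summit, and a bin was taken when replicates 1, 3 and 4 each had a summit in it. Left out were 2 bins with blocks of high signal, chromosome 9 from 3000001 to 3050000 and chromosome 2 from 98650001 to 98700000. The bins were chosen by the measured summit positions, so the number of shared bins and the spacing of summits in them are descriptions. Gene content, promoter sequence and gene lists were not part of the rule that chose them. The bins and the gene lists were, however, chosen with earlier results of these data known, so the lists are not independent of the data.

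The libraries come from epididymal adipose tissue of mice, collected 4 weeks after an intraperitoneal injection of AAV2-Otud3-Flag, an adeno-associated virus of serotype 2 that carries Flag-tagged Otud3. All 3 libraries used here were immunoprecipitated with an antibody against Flag (CST, #14793S) and are numbered 1, 3 and 4. The labels name the source as adipocyte although whole tissue was collected, and they give neither the age of the mice, the promoter of the virus nor whether a library is 1 animal. Input libraries with the same numbers were not analysed here, and no mouse without the virus is among the groups, so no shared bin has a control value beside it.

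OTUD3 belongs to the OTU deubiquitinases, enzymes that cut ubiquitin off other proteins. It has no known DNA-binding domain. Chromatin immunoprecipitation crosslinks proteins to DNA, pulls down the tagged protein and sequences the attached fragments. A 50 kb bin is far wider than the site of a bound protein, so lists can share a bin without sharing a site.

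The promoters below show the sequence at the genes that recur in the results. Zfp36, Junb, Atf3, Nr4a1 and Btg1 are immediate-early genes, which are switched on within minutes of a stimulus, and each overlaps a shared bin. Ubb, Eif5a and Sirt3 were chosen because 1 peak overlaps the sequence printed. Each is the 250 bases before a transcription start in RefSeq (build GRCm38.p6), written 5′ to 3′ on the strand of the gene. Capitals mark matches, on either strand, to the GC box GGGCGG, the CCAAT box CCAAT, the TATA box TATAAA or the CArG box.
Zfp36, chr7:28379229-28379478, minus strand: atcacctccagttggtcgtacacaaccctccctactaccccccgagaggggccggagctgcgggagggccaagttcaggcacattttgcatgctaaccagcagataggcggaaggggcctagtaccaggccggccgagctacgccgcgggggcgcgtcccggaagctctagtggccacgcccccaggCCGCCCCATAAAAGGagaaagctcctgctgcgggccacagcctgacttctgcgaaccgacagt
Junb, chr8:84978749-84978998, minus strand: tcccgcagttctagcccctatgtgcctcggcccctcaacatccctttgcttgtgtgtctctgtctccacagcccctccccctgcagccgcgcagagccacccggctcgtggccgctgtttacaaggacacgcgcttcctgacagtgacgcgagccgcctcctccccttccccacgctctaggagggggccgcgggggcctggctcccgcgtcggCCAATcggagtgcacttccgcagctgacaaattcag
Atf3, chr1:191183334-191183583, minus strand: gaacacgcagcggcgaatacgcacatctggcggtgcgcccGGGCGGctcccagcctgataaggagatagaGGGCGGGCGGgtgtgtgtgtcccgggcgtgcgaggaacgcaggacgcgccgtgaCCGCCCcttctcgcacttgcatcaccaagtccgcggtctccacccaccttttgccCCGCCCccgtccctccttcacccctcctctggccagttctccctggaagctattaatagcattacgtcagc
Nr4a1, chr15:101266596-101266845, plus strand: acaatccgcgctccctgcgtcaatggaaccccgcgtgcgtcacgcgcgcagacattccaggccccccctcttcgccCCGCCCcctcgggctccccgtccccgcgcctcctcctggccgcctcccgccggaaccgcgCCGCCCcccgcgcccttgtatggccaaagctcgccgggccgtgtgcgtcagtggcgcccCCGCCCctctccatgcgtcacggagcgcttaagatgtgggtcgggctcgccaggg
Btg1, chr10:96616751-96617000, plus strand: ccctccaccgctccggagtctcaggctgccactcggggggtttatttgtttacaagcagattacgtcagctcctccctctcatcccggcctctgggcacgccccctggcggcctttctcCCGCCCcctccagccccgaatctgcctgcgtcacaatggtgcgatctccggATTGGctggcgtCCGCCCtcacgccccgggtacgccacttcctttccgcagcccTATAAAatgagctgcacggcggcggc
Ubb, chr11:62551481-62551730, plus strand: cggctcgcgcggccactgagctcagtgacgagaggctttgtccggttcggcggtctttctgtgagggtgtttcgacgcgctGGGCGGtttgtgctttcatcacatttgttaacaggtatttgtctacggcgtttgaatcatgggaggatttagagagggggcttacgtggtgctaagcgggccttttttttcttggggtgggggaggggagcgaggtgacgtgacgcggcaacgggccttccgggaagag
Eif5a, chr11:69921086-69921335, minus strand: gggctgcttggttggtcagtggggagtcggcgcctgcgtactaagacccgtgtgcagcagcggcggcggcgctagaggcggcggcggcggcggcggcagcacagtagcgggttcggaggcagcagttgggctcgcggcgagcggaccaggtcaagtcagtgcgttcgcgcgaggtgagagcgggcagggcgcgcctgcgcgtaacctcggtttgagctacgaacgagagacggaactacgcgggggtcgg
Sirt3, chr7:140882310-140882559, minus strand: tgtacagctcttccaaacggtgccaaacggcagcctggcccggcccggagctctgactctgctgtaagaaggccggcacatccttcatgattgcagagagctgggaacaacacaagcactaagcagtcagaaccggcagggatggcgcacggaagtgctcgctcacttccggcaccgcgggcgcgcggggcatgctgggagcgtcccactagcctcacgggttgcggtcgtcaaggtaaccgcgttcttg
The Zfp36 sequence has a GC box 63 bases and a CArG box 58 bases before the start, and the 2 matches share a base. Atf3 has 5 GC boxes and Nr4a1 has 3, while Junb has none and carries a CCAAT box 36 bases before its start. Btg1 combines 2 GC boxes with a CCAAT box and a TATA box. No letters of the motifs searched occur in the Eif5a and Sirt3 windows. A match is a description of the letters and not a binding site.

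Shared bins made up 0.961% of all bins. Replicate 1 hit 20.0% of bins, replicate 3 hit 12.0% and replicate 4 hit 23.2%. Summits of exactly 2 lists lay in 4506 bins, so that 10.1% of bins had at least 2 lists, and 16706 bins had exactly 1. Replicate 1 hit 29.3% of the 1616 bins that both other lists hit, but 17.9% of the bins that neither hit. For replicate 3 the shares were 17.4% and 10.3%, and for replicate 4 they were 29.7% and 21.5%. Each list hit the bins of the other 2 lists more often than bins in general. In all 3 lists the share was lowest where no other list had a summit. These shares use the summit positions that also chose the shared bins, so they are descriptions. Any bins in which no summit could be called stayed in the counts. Such bins lower the general share and the share where no other list had a summit. How much of the difference they make was not tested.

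The share of bins that were shared rose with the number of genes. Of bins without a protein-coding gene, 0.331% were shared, against 1.12% of bins with 1 gene, 1.85% of bins with 2 genes and 2.91% of the 2715 bins with 3 or more. Within bins that had no gene, replicate 1 hit 13.8% overall and 19.3% where both other lists had a summit. Within bins of 3 or more genes the shares were 38.5% and 41.6%. The conditional share was the higher one for each of the 3 lists in each of the 4 gene classes. The smallest gap was in replicate 4 at 3 or more genes, 31.0% and 32.4%. The overall share of each class also counts any bins in which no summit could be called, so the gaps are descriptions.

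Shared bins were rich in genes. They held 1.55 protein-coding genes on average, against 1.26 in bins of exactly 2 lists, 0.935 in bins of 1 list and 0.677 in bins of none, so the mean rose with each added list. The share of the bin that lies inside a gene followed the same order, at 61.8%, 54.9%, 44.6% and 34.4%. No protein-coding gene lay in 70 shared bins, or 14.8%, compared with 50.2% of bins without a summit. A single gene spanned the whole bin in 103 shared bins, and 31 had no annotated gene of any type. At the other end, 16.7% of shared bins and 3.52% of bins without a summit had 3 or more genes.

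**Figure D1:**
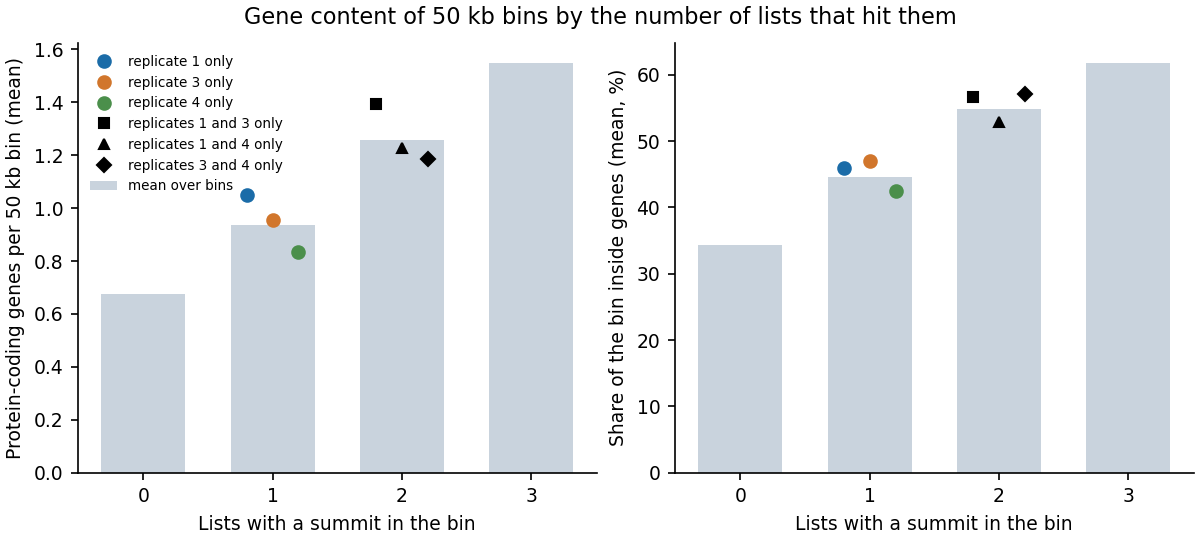
Mean number of protein-coding genes per 50 kb bin (left) and mean share of the bin inside genes in percent (right), by how many of the 3 lists have a summit in the bin. Bars are means over all bins of a class and points are bins of 1 given list or pair; the bars climb from 0.677 to 1.55 genes and from 34.4% to 61.8%.

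Set against bins of the same chromosome, weighted to where the shared bins lie, the other bins held 0.856 genes, a difference of 0.692 genes or 1.81 times. The covered share was 40.6% in those bins, a difference of 21.1 percentage points. The same difference for all bins that a single list hit was 0.393 genes in replicate 1, 0.337 in replicate 3 and 0.193 in replicate 4 (mean 0.308 ± 0.103 SD, n = 3 lists). All bins hit by 1 list thus showed the direction, and shared bins showed more than any single list. Bins hit by 3 lists that each lean to genes would lean further by construction, so the larger difference is not a separate result. The same holds for the rise of gene content with each added list and of the shared portion with gene number. Bins hit in replicate 1 alone held 1.05 genes, in replicate 3 alone 0.955 and in replicate 4 alone 0.835. Among pairs, replicates 1 and 3 gave 1.39 genes, replicates 1 and 4 gave 1.23 and replicates 3 and 4 gave 1.18. These differences were not tested, since neighbouring bins are not independent samples.

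The direction held on most chromosomes. Genes per bin were higher in shared bins on 18 of 19 chromosomes, and the covered share on 19 of 19. Chromosome 7 had the widest gap, 2.90 genes per shared bin against 1.09 per other bin, followed by chromosome 10 with 2.18 against 0.785. The exception was chromosome 18, where 12 shared bins held 0.667 genes against 0.712 in the others, although their covered share was higher. Shared bins were most frequent on chromosomes 11 (45 bins, 1.85%) and 19 (22 bins, 1.79%) and least frequent on chromosomes 13 (10 bins, 0.415%) and 12 (12 bins, 0.50%). Chromosomes 11 and 19 also had many genes per bin outside the shared bins, 1.11 and 1.02, compared with 0.689 and 0.636 on chromosomes 13 and 12.

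**Figure D2:**
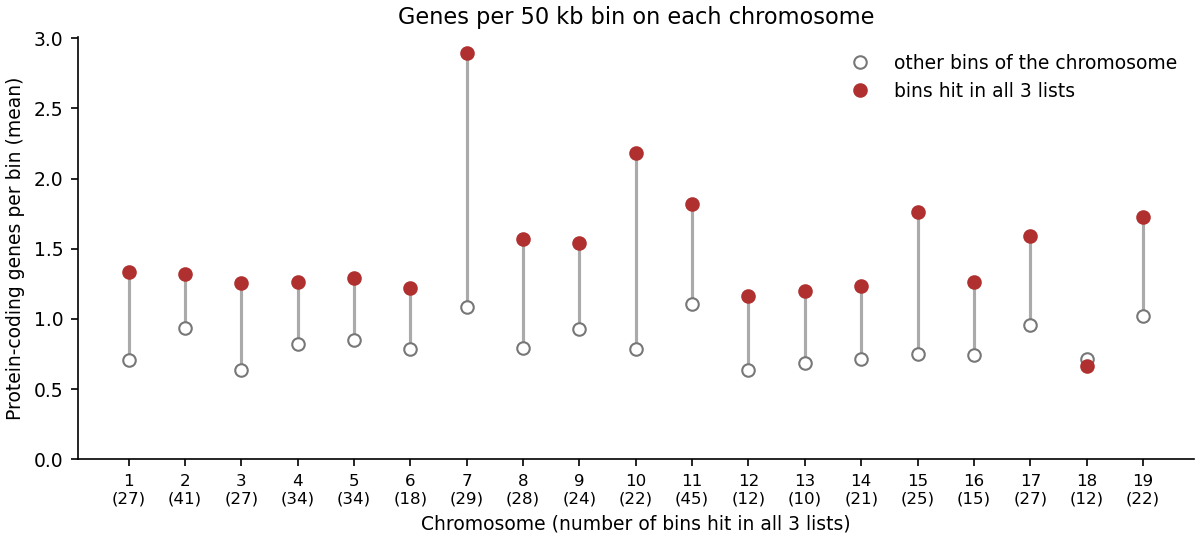
Mean protein-coding genes per 50 kb bin on each chromosome, in shared bins (filled) and in the other bins of that chromosome (open), with the number of shared bins in brackets. The filled point lies above the open one on 18 of 19 chromosomes, with chromosome 18 the exception.

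Some shared bins lay close together. Of the 473, 32 adjoined another shared bin, in 16 runs of 2. Windows of 1 Mb with at least 3 shared bins numbered 9. The window with the most, 6, was on chromosome 2 at 32 to 33 Mb. It holds Cdk9, the kinase that releases paused RNA polymerase II, and Slc25a25, a mitochondrial carrier. Inside shared bins, Slc25a25 had 1 summit of each list on the gene or within 1 kb of it, and Cdk9 had 0. The next window, with 4, was on chromosome 11 at 69 to 70 Mb. It holds the histone demethylase gene Kdm6b, the translation factor genes Eif4a1 and Eif5a and the insulin-responsive glucose transporter gene Slc2a4.

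Peaks in shared bins were about as weak as those in other bins. The caller's fold enrichment over local background, a value of the authors, had a median of 3.28, 3.02 and 3.03 in replicates 1, 3 and 4, against 3.20, 3.00 and 3.02 in bins of 1 list. The median summit rested on 4, 6 and 5 fragments, worked out from the fold and p of each peak, and a count that small carries a large counting error. A q below 0.05 was reached in 4 shared bins, each in 1 list, and in 2 lists at once in 0. The 4 are 0.846% of shared bins, against 0.599% of bins of 2 lists and 0.233% of bins of 1. Counted per summit the shares were 0.228%, 0.281% and 0.208%, with no order by class. The 4 were the bins of Zfp36 in replicate 1 (fold 5.38, 7 fragments, q = 0.0294), Prex1, a Rac exchange factor, in replicate 1 (6.39, 8 fragments, q = 0.000908), Camk2d, a calcium-dependent kinase, in replicate 1 (5.69, 7 fragments, q = 0.0132) and a bin without a protein-coding gene on chromosome 2 from 109450001 in replicate 4 (5.44, 9 fragments, q = 0.00598). The Prex1 bin holds an end of the gene, and no summit of replicate 1 there was on the gene or within 1 kb of it. These q-values are the deposited ones, adjusted by the caller within 1 list.

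In shared bins 64.8% of the 1755 summits lay inside a protein-coding gene, compared with 57.4% in bins of 2 lists and 46.2% in bins of 1. The shares in shared bins were 63.8%, 64.2% and 66.6% in replicates 1, 3 and 4, and in bins of 1 list they were 48.0%, 48.2% and 44.0%. These shares lie close to the part of the bins that genes cover, 61.8% in shared bins and 44.6% in bins of 1 list. Within 1 kb of either end of a gene lay 11.2% of summits of replicate 1 in shared bins, 4.61% of replicate 3 and 5.19% of replicate 4. In bins of 1 list the same shares were 5.64%, 3.29% and 2.51%. Replicate 1 thus placed more of its summits at gene ends than the other lists, in both classes of bins.

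The 3 lists seldom pointed at the same place within a shared bin. The closest 3 summits, 1 from each list, spanned a median of 20366 bp, with quartiles of 12264 and 29994 bp. Spans under 5 kb were found in 25 bins and spans under 1 kb in 0. The closest summits of replicates 1 and 3 were a median of 10534 bp apart in shared bins and 11570 bp in bins of exactly those 2 lists, and the other pairs were alike, at 10582 and 11912.5 bp for replicates 1 and 4 and 10926 and 12154 bp for replicates 3 and 4. Summits of replicates 1 and 3 lay less than 300 bp apart in 16 shared bins, or 3.38%, against 1.25% of bins of exactly those 2 lists. For replicates 1 and 4 the count was 6, or 1.27% against 1.83%, and for replicates 3 and 4 it was 6, or 1.27% against 2.27%, so the pairs went in different directions. Exactly 1 summit per list was present in 265 shared bins, the fewest the choice allows. The edges mattered as well: in 187 shared bins some list had summits only within 5 kb of an edge, and 276 bins of exactly 2 lists had a summit of the missing list less than 5 kb outside.

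The 15 tightest spans ranged from 2356 to 4351 bp. The smallest lay in Kcnq5, a voltage-gated potassium channel gene on chromosome 1, with summits at 21879062, 21877996 and 21876706 in replicates 1, 3 and 4 and folds of 2.53, 2.57 and 2.53. These folds were low within their lists, at percentiles of 5.84, 12.8 and 15.1. Rbm15, an RNA-binding protein gene on chromosome 3, followed with 2451 bp, and its summits had folds of 3.55, 4.06 and 2.47. All 3 summits of each of these genes lay in the gene body. Next came Sptbn5, a spectrin gene (2824 bp), Ndfip2, an adaptor of Nedd4-family ubiquitin ligases (2935 bp), Rnd3 (3031 bp), and Blm, a DNA helicase gene (3157 bp). The other tight spans with a protein-coding gene were on Nr4a1, Ubb, Bcas3, Igf2r, Atf3, Kif21a and Slc22a3. Of the 15, the Neat1 span of 3567 bp was on a long non-coding RNA gene, and a chromosome 2 span of 3267 bp had no protein-coding gene within 34.8 kb. None of the 15 bins had a q below 0.05 in any list.

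Ubb, which encodes polyubiquitin, the source of the molecule that OTUD3 removes, had its replicate 1 summit 100 bases after the start printed above, with a fold of 3.55 from 4 fragments (q = 0.651). The nearest summit of replicate 4 and the summit of replicate 3 lay beyond the end of the gene, 2149 and 3763 bases after the start. Igf2r, the receptor that carries IGF2 to lysosomes, had summits of replicates 1 and 3 that were 248 bp apart, and the one of replicate 4 was several kb away.

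The shared bin with the most summits lay on long non-coding RNA genes. The bin at chromosome 19 from 5800001 to 5850000 had 16 summits, 9 in replicate 1, 4 in replicate 3 and 3 in replicate 4. It holds no protein-coding gene but the long non-coding RNA genes Neat1, which builds nuclear paraspeckles, and the end of Malat1, an abundant nuclear RNA. Neat1 itself had 6, 2 and 2 summits, with folds from 2.69 to 4.71 in replicate 1, of 2.76 for both in replicate 3 and of 3.15 and 3.49 in replicate 4. Summits of all 3 lists were spread along the gene rather than stacked at a point.

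The Zfp36 bin on chromosome 7 followed with 12 summits, 8, 1 and 3 in replicates 1, 3 and 4. Zfp36 encodes tristetraprolin, which destabilises inflammatory mRNAs. Replicate 1 had its strongest summit 57 bases after the start printed above, and replicate 3 had a summit of fold 2.77 in the gene, 1052 bases after the start. Replicate 4 had no summit on Zfp36, but 2 in Paf1, a subunit of an RNA polymerase II elongation complex, the nearer of which lay 139 bp from one of replicate 1. The bin of Egr1, a zinc finger transcription factor, on chromosome 18 had 4, 5 and 1 summits. On the gene or within 1 kb of it lay 1 summit of replicate 1 (fold 4.21) and 2 of replicate 3 (3.16 and 3.13), and none of replicate 4.

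Junb, a subunit of the AP-1 transcription factor, had 6, 1 and 1 summits in its bin on chromosome 8. Replicate 1 had a summit of fold 4.98 from 6 fragments in the gene (q = 0.0977), and replicate 3 had one of fold 3.23 that lay 108 bp away. Replicate 4 had its only summit of this bin in Rnaseh2a, a ribonuclease subunit gene. So replicates 1 and 3 met at Junb, and replicate 4 was not with them.

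Angptl4, which encodes a secreted inhibitor of lipoprotein lipase and is a known target of PPAR receptors, shares its bin on chromosome 17 with Rab11b, a small GTPase gene of recycling endosomes. The bin had 5, 2 and 2 summits. Within Angptl4, replicate 1 had summits of fold 3.55 and 3.90 and replicate 4 had summits of 3.71 and 4.60, the latter from 9 fragments (q = 0.0645), and replicate 3 had none. Between the 2 genes, summits of replicates 1 and 3 lay 15 bp apart. Ranked within its list, the highest fold of this bin was at or above the 88.7th percentile in every list, the highest such minimum of all shared bins. Kcnj1, Trp53bp2, Catspere2 and Bcas3 followed, at percentiles of 87.4, 84.0, 83.9 and 79.8.

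Among the 10 bins with the most summits was also that of the nuclear receptor genes Thra and Nr1d1, with Msl1 (7, 1 and 1). Further ones were those of Ifrd1, a transcriptional co-regulator (5, 2 and 1), and Fbxl18, a ubiquitin ligase subunit (3, 2 and 3). The last were those of Rela, the p65 subunit of NF-kB, with the acetyltransferase gene Kat5 (3, 2 and 2), and Rnd3 (3, 2 and 2). Summits of replicates 1 and 3 in Rela lay 225 bp apart, with folds of 3.98 and 3.55. Over these 10 bins, replicate 1 gave 53 of 94 summits, replicate 3 gave 22 and replicate 4 gave 19, and replicate 1 alone was highest in 8. The bins were picked by their number of summits, and over all shared bins the lists were more even, with 635, 542 and 578 of 1755 summits and replicates 1, 3 and 4 alone highest in 82, 31 and 62 bins. Whether the tendency of replicate 1 towards gene ends bears on this was not tested.

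**Figure D3:**
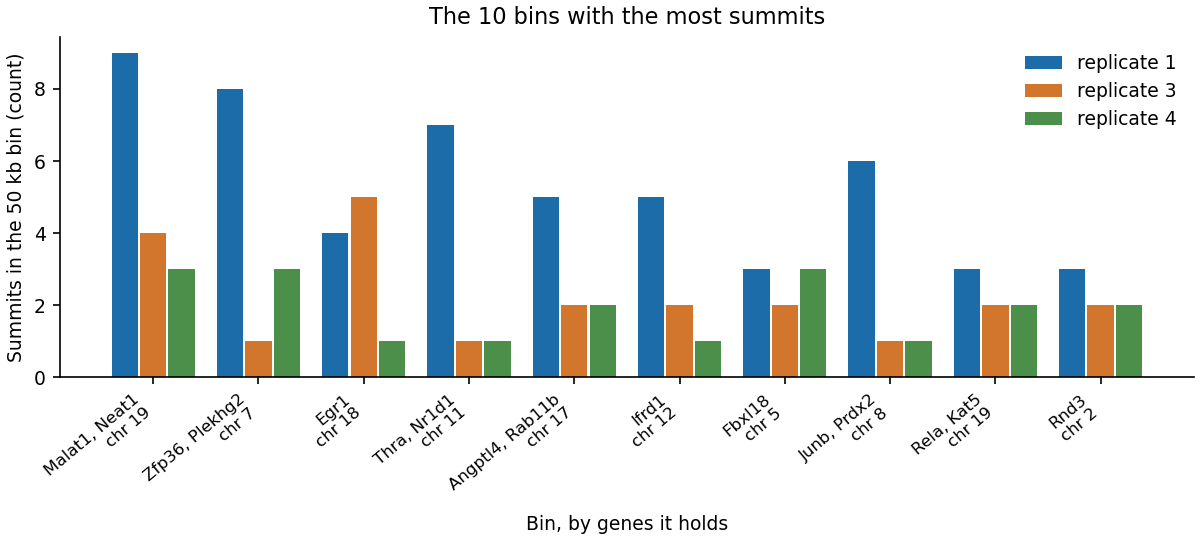
Number of summits of each replicate in the 10 shared bins with the most summits, labelled by genes they hold. Replicate 1 is the highest bar alone in 8 of the 10 bins; the Neat1 bin has 9, 4 and 3 summits.

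**Figure D4:**
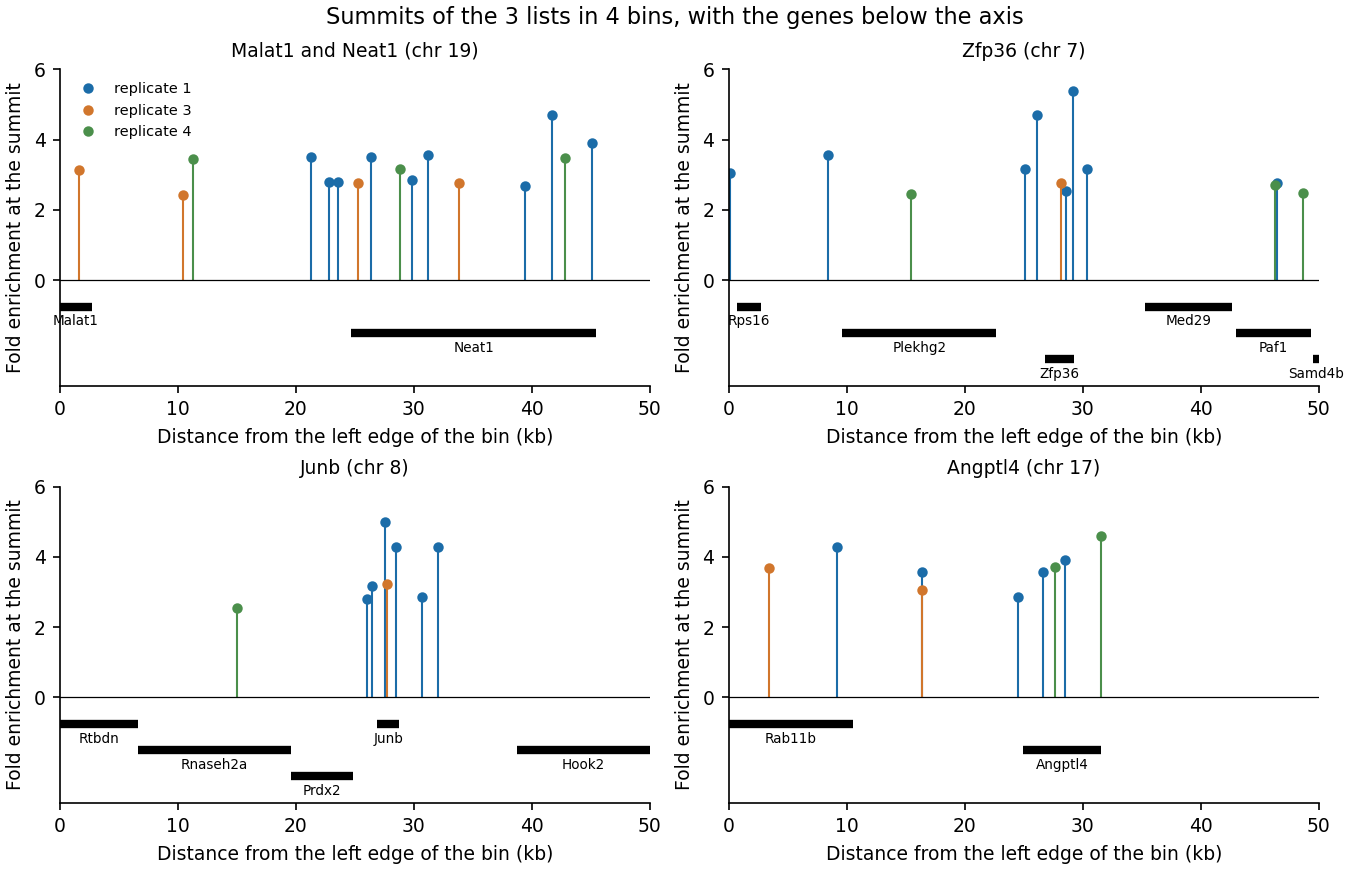
Summits in 4 shared bins by distance in kb from the left edge of the bin; height is the caller's fold enrichment, colour is the replicate, and black bars are genes. Summits of all 3 lists lie along Neat1. The ones on Angptl4 come from replicates 1 and 4, and the ones on Zfp36 and Junb come from replicates 1 and 3.

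Protein-coding genes that overlap a shared bin numbered 719 of 20665, or 3.48%. Of these, 212 had summits of all 3 lists within the gene or 1 kb of it, 1.03% of all genes. Length mattered for both counts. The share on a shared bin was 2.48% for genes under 10 kb and 6.46% for genes of 100 to 300 kb, and the median length was 26.8 kb on shared bins and 17.2 kb elsewhere. For the 212 genes it was 107 kb, and no gene under 10 kb was among them.

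Immediate-early genes stood on shared bins more often than this background, at 7 of 28, or 25% against 3.48%, with a median length of only 5.14 kb. The 7 are Zfp36, Junb, Egr1, Atf3, Nr4a1, Btg1 and Ier2. A bin hit in exactly 2 lists was the best one for a further 13, among them Fos, Jun, Jund, Fosl2, Klf2 and Btg2, a bin of 1 list for 7, and Myc alone had none. Over all protein-coding genes the corresponding shares were 23.3%, 42.6% and 30.6% for 2, 1 and no lists, and over genes under 10 kb they were 15.4%, 38% and 44.1%. The list as a whole was not tested, and its genes were chosen with earlier results of these lists in view.

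Within the genes the lists were less even. Atf3, a stress-induced transcription factor of the ATF family, had 1 summit of each replicate, in a span of 3972 bp with folds of 3.34, 2.71 and 2.72. Nr4a1, an orphan nuclear receptor, had 1, 2 and 1 summits with a closest span of 3600 bp, and the 3 summits of that span lay upstream of the start printed above, inside the longer annotated gene. Btg1, an antiproliferative gene, had 2 summits of replicate 1 and none of the others on the gene or within 1 kb. Ier2, a nuclear protein gene, had 1 of replicate 3. On 5 of the 7 genes replicate 4 had no summit, its own summits lying elsewhere in the bin. With 25 kb bins 3 of the 28 genes stood on a shared bin against 0.973% of all genes, and with peaks at or above the median fold of their list 1 did, against 0.658%. With 100 kb bins the 12 genes made up a share above the 12.7% of all genes.

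The adipose lists had small counts at shares above the 3.48% of all genes. The adipocyte fate factors had 2 of 25, or 8%, Creb1, the transcription factor activated by cyclic AMP, and Tcf7l2, the nuclear effector of Wnt signalling. Each had summits of all 3 lists in the gene, over 34986 and 19102 bp. Insulin and adipokine signalling had 3 of 30, or 10%. Insr, the insulin receptor gene, had 1 summit of each list over 35837 bp, whereas Adipoq, the adiponectin gene, and Slc2a4 overlapped a shared bin with no summit of any list in that bin on the gene or within 1 kb of it. Lipolysis and fatty acid oxidation had 3 of 24, or 12.5%, namely Angptl4, Fabp5, a fatty acid binding protein gene, and Cd36, the fatty acid uptake receptor, which spans 2 adjoining shared bins and had 2, 2 and 3 summits in the gene. Lipid synthesis and cholesterol had 1 of 26, or 3.85%, the cholesterol exporter Abca1. In lists this short 1 gene moves the share by several points.

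Ogdh, a gene of the TCA cycle, had 3, 1 and 1 summits in the gene, over 21686 bp. Oxidative phosphorylation had 0 of 43 and the PPAR targets and coactivators 0 of 20. The latter list leaves out Angptl4, a PPAR target on a shared bin that was counted under lipolysis and fatty acid oxidation. Its 0 therefore does not mean that no PPAR target was on a shared bin. No deubiquitinase of the OTU family was on a shared bin (0 of 13), which includes Otud3 itself. At the background of 3.48%, lists of this size would hold about 1 gene, so counts of 0 in them lie close to what all genes show.

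Nuclear receptors had 5 of 43, or 11.6%, namely Thra, Nr1d1, Thrb, Nr4a1 and Rorb, and chromatin modifiers and remodellers had 5 of 45, or 11.1%, namely Chd3, Kdm6b, Brd2, Arid1a and Ep400. Thra and Nr1d1 overlap the same shared bin. Rorb had no summit of any list in its shared bin on the gene or within 1 kb. Summits of all 3 lists on the gene or within 1 kb were found for 2 genes in each list. These are 4.65% and 4.44%, against 1.64% of all genes of 30 to 100 kb. Thrb, a thyroid hormone receptor gene, had 1, 1 and 2 summits with a closest span of 8369 bp. Kdm6b, a demethylase of histone H3 lysine 27, had 3, 1 and 1 summits over 9694 bp. Their genes are long, with median lengths of 53.9 and 77.8 kb, and the share on shared bins for all genes of 30 to 100 kb was 3.99%. NF-kB, cytokine and interferon response genes had 1 of 26, or 3.85%, Rela.

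Among cell type markers, adipocyte markers had 3 of 10 on a shared bin, or 30% against 3.48% of all genes, namely Cfd, Adipoq and Cidec. Macrophage markers had 2 of 7, or 28.6%, Ptprc and Cd68, and stromal and mesothelial markers 1 of 8, or 12.5%, Pdgfra. Endothelial markers (0 of 6) and epididymis and testis markers (0 of 6) had none. Of the 6 on a shared bin, Pdgfra had summits of all 3 lists in the gene, with 1, 1 and 2 over 17598 bp. DNA of these genes is present in every cell, so a summit does not mark a cell type, and the labelled tissue could not be checked from peak positions.

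The large gene families looked at had shares below the 3.48% of all genes. None of 1104 olfactory receptor genes lay on a shared bin, nor any of 112 keratin genes. Clustered protocadherins had 0 of 57, where the share of all genes would give about 2. Genes of a cluster can overlap the same bins, so they are not separate chances. Vomeronasal receptors had 1 of 354, Vmn2r120, or 0.282%. Zinc finger genes with Zfp symbols had 5 of 391, or 1.28%, which include Zfp36. Median lengths were 0.95, 0.962 and 1.77 kb for olfactory receptors, vomeronasal receptors and keratins, shorter than the 3.82 kb of all genes under 10 kb, and the part of length in these counts was not tested. Outside protein-coding genes, 219 of 12408 long non-coding RNA genes (1.76%) and 33 of 1136 miRNA genes (2.90%) overlapped a shared bin.

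**Figure D5:**
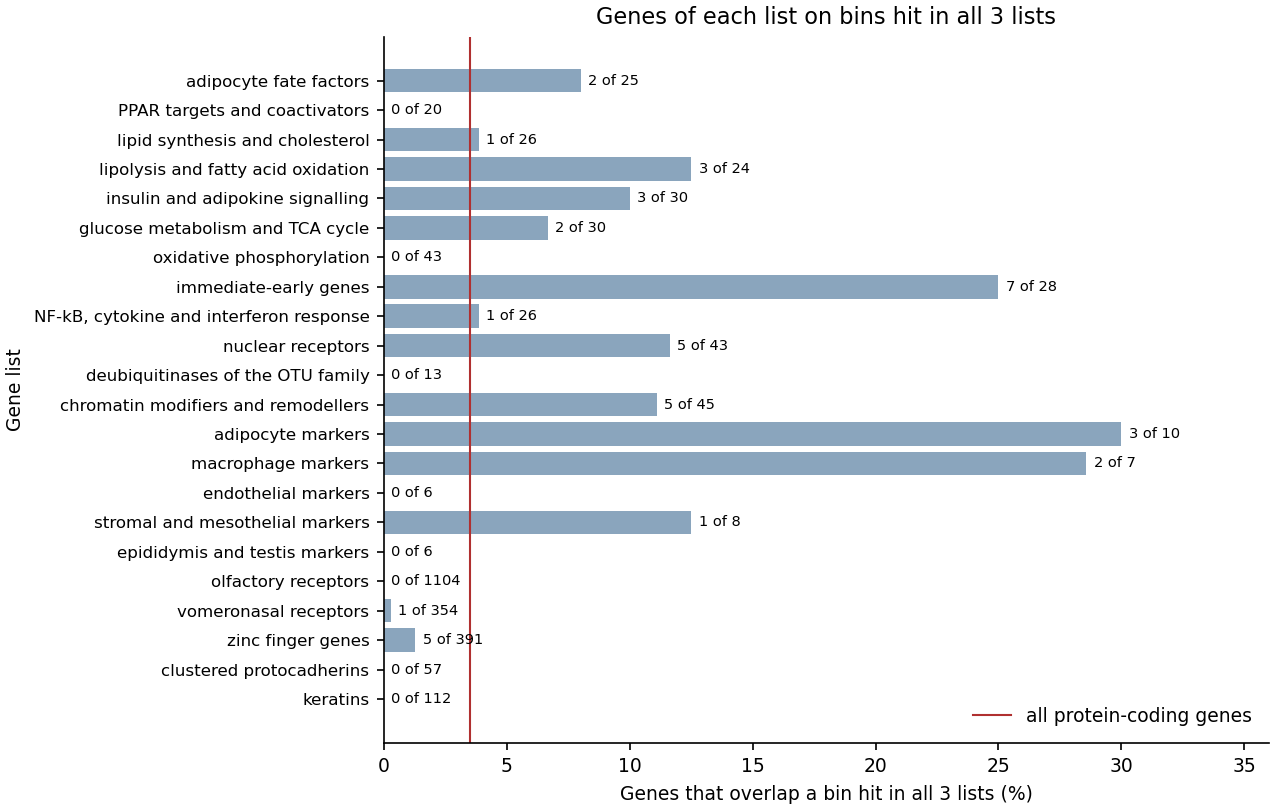
Share of the genes of each of 22 lists, in percent, that overlap a shared bin, with the counts beside the bars; the line marks all protein-coding genes at 3.48%. Immediate-early genes are at 7 of 28, and olfactory receptors at 0 of 1104.

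The shared bins with the most genes were dense clusters. The bin of Rassf1, a tumour suppressor, and of the hyaluronidase genes Hyal1, Hyal2 and Hyal3 on chromosome 9 had 10 genes, and 4 summits. The bin of Cd68, Eif4a1 and Senp3 on chromosome 11 had 9. The bin of Dbp, a clock-controlled transcription factor, and Sphk2, a sphingosine kinase gene, on chromosome 7 had 7. Bins with 6 genes held the Ugt1a cluster of glucuronosyltransferases, Sirt3, a mitochondrial deacetylase gene, with the proteasome subunit gene Psmd13, and Cfd, the adipocyte-secreted complement factor D, with the neutrophil elastase gene Elane. The Sirt3 bin had 1 summit of each list, and the one of replicate 1 lay 11 bases before the Sirt3 start printed above. The same summit lay 74 bases before the start of Psmd13 on the other strand, with a fold of 3.55 from 4 fragments (q = 0.651). Eif5a, a translation factor gene, had its replicate 3 summit 45 bases after the start printed above, with a fold of 4.52 from 9 fragments (q = 0.15), and a summit of replicate 1 in the gene.

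Promoters in shared bins were somewhat richer in G and C. RefSeq windows of 250 bases before the start were found for 592 of the 719 genes, and 457 windows, of 372 genes, lay in a shared bin. Chromosome 18 is not in the table used. Their GC content was 59.6 ± 10.2% (SD over windows), against 55.7% for windows elsewhere on the same chromosomes, higher on 16 of 18 chromosomes. They held 15.5 CpG dinucleotides on average against 12.2, more on 14 of 18. The GC box GGGCGG, like those of Atf3 and Nr4a1 above, occurred in 55.6% of windows in shared bins and in 43.4% of all windows of this length. The TATA box TATAAA occurred in 5.69% and 11.7%, so it was rarer in shared bins. CCAAT was alike, at 35.2% and 35.3%. The AP-1 site TGACTCA was found in 5.25% and 4.09%, the cyclic AMP response element TGACGTCA in 2.63% and 1.98%, the E-box CACGTG in 8.75% and 6.69% and the CArG box in 1.09% and 1.30%. The AP-1 site had no order by lists, at 4.53%, 3.54% and 4.07% in bins of none, 1 and 2. The cyclic AMP response element was more frequent in bins of 2 lists, at 3.16%, than in shared bins. The E-box share rose, from 5.63% in bins of none to 7.88% in bins of 2. GC content and the share with a GC box rose with the number of lists, from 53.6% and 36.8% in bins of none to 56.8% and 45.9% in bins of 1 and 58.7% and 53.2% in bins of 2. If each list leans to such promoters, a rise with each added list follows by construction and is not a separate result. Windows of different starts of a gene can overlap, both strands were searched, and these differences were not tested.

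Peaks were also matched to the promoter windows. Counting genes of every type, 632 windows lay in shared bins, and 31 of them, of 24 genes in 22 bins, were overlapped by a peak, or 4.91%. In bins of 2 lists this held for 2.13% of 4652 windows and in bins of 1 list for 1.19% of 12077, and these bins also hold fewer summits each. The peaks numbered 13 in replicate 1, 3 in replicate 3 and 6 in replicate 4. None of the windows had peaks of 2 lists, and 1 of the 22 peaks had a q below 0.05, the Zfp36 peak of replicate 1. The 3 of replicate 3 were on Elane, Eif5a and Pcnx2.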

How the data were processed

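The 3 peak lists of the anti-Flag libraries were used, on mm10, the build that GRCm38 names. The submitters' processing notes name BWA 0.7.12, MACS2 2.1.0 and fastp 0.19.11. Each list was deposited for 1 library, unpooled, and the use of input in the calling is not given in the sources. The deposited values per peak are an integer score, a fold (a ratio over background near the peak) and the −log10 of both the p-value and the q-value, made by the authors' caller. Nothing says that the libraries are separate animals, so the spread over lists may be technical. Read depth is not in the lists.

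Rows with the same interval were reduced to the summit of lowest p, which left 11871, 6531 and 13496 intervals. Fragments at a summit were solved from the fold, with the pseudocount of 1, and the Poisson p, to within 0.001 in log10, and 100% of peaks gave a whole number. Bins run from position 0 to the last gene or peak of a chromosome, and 2 bins on the left-out blocks were dropped. Gene positions and promoters came from RefSeq tables (GRCm38.p6), without exons. Other bins were weighted by the chromosomes of the shared bins. Means, SDs and counts were computed in Python 3.11.15 with pandas 2.3.3, numpy 2.4.6 and scipy 1.17.1, and the procedure was tested on simulated lists. Named genes are those of the 15 tightest bins, of the 10 with the most summits, the most genes or the highest minimum fold percentile, and up to 3 per gene list with summits of every list. Other list members are named because they overlap a shared bin, and were chosen after their values were seen, as were Prex1, Camk2d, the genes of 1 Mb windows and the promoters printed. The bins and lists were chosen with earlier results of these data known. Some genes are not reported here. Alternatives changed the bin width, grid, peak filters, masked regions, comparison bins, gene definition and replicates.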

Additional observations from a re-analysis of the deposited data

How the results depend on the processing

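Every alternative run kept a higher number of genes and a higher covered share in shared bins than in other bins of the same chromosome, and the size of both depended on the setting. With 25 kb bins there were 172 shared bins, a difference of 0.533 genes and 24.9 percentage points, a median span of 11700 bp, 0.973% of genes on a shared bin and 3 immediate-early genes. With 100 kb bins the values were 1186 bins, 1.05 genes, 37972.5 bp, 12.7% of genes and 12 immediate-early genes. A grid shifted by 25 kb gave 503 bins and a span of 21016 bp. Peaks at or above the median fold of their list left 106 bins, a difference of 0.421 genes and 17.4 points, a span of 23306 bp, 0.658% of genes and 1 immediate-early gene. Lists cut to the size of the smallest gave 173 bins, 22110 bp, 1.22% of genes and 3 immediate-early genes. Set against bins with a summit in at least 1 list, the differences were 0.505 genes and 14.2 points, and with all annotated genes the difference was 0.880 genes. Leaving out 1 replicate asks for 2 lists in place of 3, which by construction adds bins. It gave 1592 to 2717 bins, 0.466 to 0.607 genes, 14.9 to 18.7 points, spans of 11102.5 to 11862 bp, 9.56% to 15.5% of genes and 9 to 15 immediate-early genes. The 12 genes left without replicate 3 compare with 15.5% of all genes, the 9 without replicate 1 with 9.56% and the 15 without replicate 4 with 10.5%. With 1 replicate left out, the spans are those of 2 summits rather than 3. A span also cannot be wider than its bin, so spans at different bin widths are not directly comparable. The causes of the other shifts were not tested. Peaks with a q of at most 0.5 left 0 bins hit in all 3 lists, so no value could be given. The immediate-early alternatives were chosen after seeing the data. No paired analysis was possible because no values of the other labelled group, the input libraries with the same numbers, were analysed here. Medians of 4 to 6 fragments per peak limit what any 1 summit shows.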
